A study of Mus musculus with 4 samples.

Results

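Motile cilium and ependymal genes were examined in cultured cerebral cells of C3H/He mice, as 44 genes of which 42 had a probe set annotated to that gene alone, among 22180 genes measured in this way. The members were 14 dynein genes and 30 further genes of the motile axoneme, of the programme that builds it and of ependyma. The 14 were every gene with a probe set annotated to it alone whose symbol is Dnah, Dnaic or Dnali followed by a number. *Dnah7b* and *Dnah7c*, whose probe set was shared with *Dnah7a*, were left out. *Ccdc103* and *Ccdc39* shared their only probe sets with another gene and had no value of their own. Where a gene had more than 1 such probe set, their mean was taken.

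RNA came from astrocyte-enriched cultures of the brains of 3-day-old pups, the adherent cells that stayed after suspended cells, including oligodendrocytes, had been shaken off a mixed glial culture. It was hybridized to 4 Affymetrix Mouse Gene 2.0 ST arrays, 1 per condition. The conditions were control without an agent, 48 h with IFNγ at 250 IU/mL, 48 h with benztropine (a muscarinic antagonist) at 2.0 μM, and 48 h with both. RNA of 3 independent cultures was mixed on each array, so no spread between cultures can be measured and a difference between a pair of arrays carries no error. The effect of IFNγ was read in a pair without benztropine (IFNγ against control) and in a pair with it (both agents against benztropine alone), which share no array.

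Motile cilia beat through dynein arms that slide the outer microtubule doublets of the axoneme past each other, while radial spokes and the central pair of microtubules set the waveform. In the brain they are carried in tufts by ependymal cells, which line the ventricles and move cerebrospinal fluid. Foxj1 and the RFX factors switch on the axonemal genes, and Mcidas and Ccno drive the multiplication of basal bodies that a multiciliated cell needs. RFX proteins bind the X-box, a palindrome whose half-site reads GTTGCC.

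The promoters of these genes were searched for short sequence motifs. RefSeq windows (build GRCm38.p6) of 300 bases, from 250 before the gene's start to 50 after it, were at hand for 39 of the 44 genes, and not for *Foxj1*, *Rsph1*, *Rsph4a*, *Lrrc6* and *Armc4*. Both strands were searched. The half-site GTTGCC was found in 19 of the 39 genes, or 48.7%, against 14.1% of all 27025 genes with such a window. The longer X-box stretch GTTNCCATG, which contains the half-site where N is G, was found in 4 genes (*Dnali1*, *Zmynd10*, *Cfap52* and *Dnah5*), or 10.3%, against 2.22%. The forkhead motif TGTTTAC was found in 2 (*Dnah17* and *Ak7*), or 5.13%, against 4.05%, and the STAT-binding GAS motif TTCNNNGAA in 2 (*Ccdc113* and *Dnah5*), or 5.13%, against 9.55%. The half-site was in 12 of 25 genes that were lower with IFNγ in both pairs of arrays described below and in 6 of 12 other measured genes. A match is a stretch of letters and not a measured binding site.

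The windows below belong to 5 genes that returned lower values with IFNγ in both pairs, *Cfap44*, *Dynlrb2*, *Rfx3* and *Zmynd10*, chosen to show such matches, and *Dnah9*, which holds none of either RFX motif. They lie at chr16:44394549-44394848 (plus strand), chr8:116504765-116505064 (plus strand), chr19:28011117-28011416 (minus strand), chr9:107547054-107547353 (plus strand) and chr11:66168502-66168801 (minus strand). Each is written 5′ to 3′ on the strand of its gene, with matches to GTTGCC, to its reverse complement GGCAAC and to GTTNCCATG in capitals.
Cfap44: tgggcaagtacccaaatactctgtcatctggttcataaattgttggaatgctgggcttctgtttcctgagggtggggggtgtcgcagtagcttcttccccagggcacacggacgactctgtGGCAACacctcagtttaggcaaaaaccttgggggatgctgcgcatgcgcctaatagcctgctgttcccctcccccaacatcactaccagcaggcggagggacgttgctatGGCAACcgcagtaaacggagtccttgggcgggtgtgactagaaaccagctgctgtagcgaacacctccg
Dynlrb2: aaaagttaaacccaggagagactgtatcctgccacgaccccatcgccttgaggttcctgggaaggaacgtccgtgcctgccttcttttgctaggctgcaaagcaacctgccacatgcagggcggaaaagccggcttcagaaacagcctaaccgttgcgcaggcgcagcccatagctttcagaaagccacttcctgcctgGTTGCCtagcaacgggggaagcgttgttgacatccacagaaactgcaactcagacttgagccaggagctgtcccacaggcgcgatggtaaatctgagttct
Rfx3: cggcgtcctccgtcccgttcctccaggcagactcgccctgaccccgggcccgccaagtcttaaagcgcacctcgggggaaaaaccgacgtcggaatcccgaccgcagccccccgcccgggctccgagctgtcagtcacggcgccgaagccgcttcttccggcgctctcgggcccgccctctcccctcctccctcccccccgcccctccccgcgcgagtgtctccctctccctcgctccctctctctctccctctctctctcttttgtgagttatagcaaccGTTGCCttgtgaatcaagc
Zmynd10: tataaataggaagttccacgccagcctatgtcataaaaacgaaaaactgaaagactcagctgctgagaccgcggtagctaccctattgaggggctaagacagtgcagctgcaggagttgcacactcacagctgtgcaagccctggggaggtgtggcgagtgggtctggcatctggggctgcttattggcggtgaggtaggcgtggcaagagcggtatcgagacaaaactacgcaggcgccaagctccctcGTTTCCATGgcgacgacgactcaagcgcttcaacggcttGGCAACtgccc
Dnah9: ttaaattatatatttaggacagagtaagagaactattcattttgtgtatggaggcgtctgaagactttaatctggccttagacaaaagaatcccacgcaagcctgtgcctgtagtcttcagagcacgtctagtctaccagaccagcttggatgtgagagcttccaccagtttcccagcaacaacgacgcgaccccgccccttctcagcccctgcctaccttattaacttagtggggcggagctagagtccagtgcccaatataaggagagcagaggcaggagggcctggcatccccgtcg
*Cfap44* held 2 half-sites, *Dynlrb2* and *Rfx3* 1 each, and *Zmynd10* 1 half-site and 1 X-box stretch.

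In the control array, 25 of the 42 genes (59.5%) were above background, taken as the 95th percentile, within each array, of 1400 probe sets for receptors of smell and pheromones (Olfr and Vmn genes). Of all genes 58.0% were, so the share of these genes detected was close to that of genes in general. The level lay between 6.64 and 6.69 on the log2 scale of the signals over the 4 arrays. At the stricter 99th percentile 16 of the 42 remained, against 38.6% of all genes. Detected genes included *Foxj1*, *Rfx2*, *Rfx3*, *Dnah5*, *Dnah9*, *Dnaic1*, *Drc1*, *Rsph4a* and *Cfap44*, while none of the 4 central pair genes was detected by its mean. In all, 24 genes were above background on each of the 4 arrays and 14 on none, the latter being *Ccno*, *Dnah7a*, *Dnah8*, *Dnah10*, *Dnah14*, *Dnah17*, *Armc4*, *Lrrc6*, *Spag6*, *Spag16*, *Spag17*, *Hydin*, *Tekt2* and *Tmem212*. Where a gene had several probe sets, these calls rest on their average. *Hydin* and *Dnah2* each had 1 of 2 probe sets above background on all 4 arrays, at 6.92 in control for both, and with the highest probe set in place of the mean 27 of the 42 were detected in control. *Dnah8* and *Dnah17* encode heavy chains known from sperm. Probe sets differ in how strongly they bind, so their signals do not rank the genes.

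**Figure D1:**
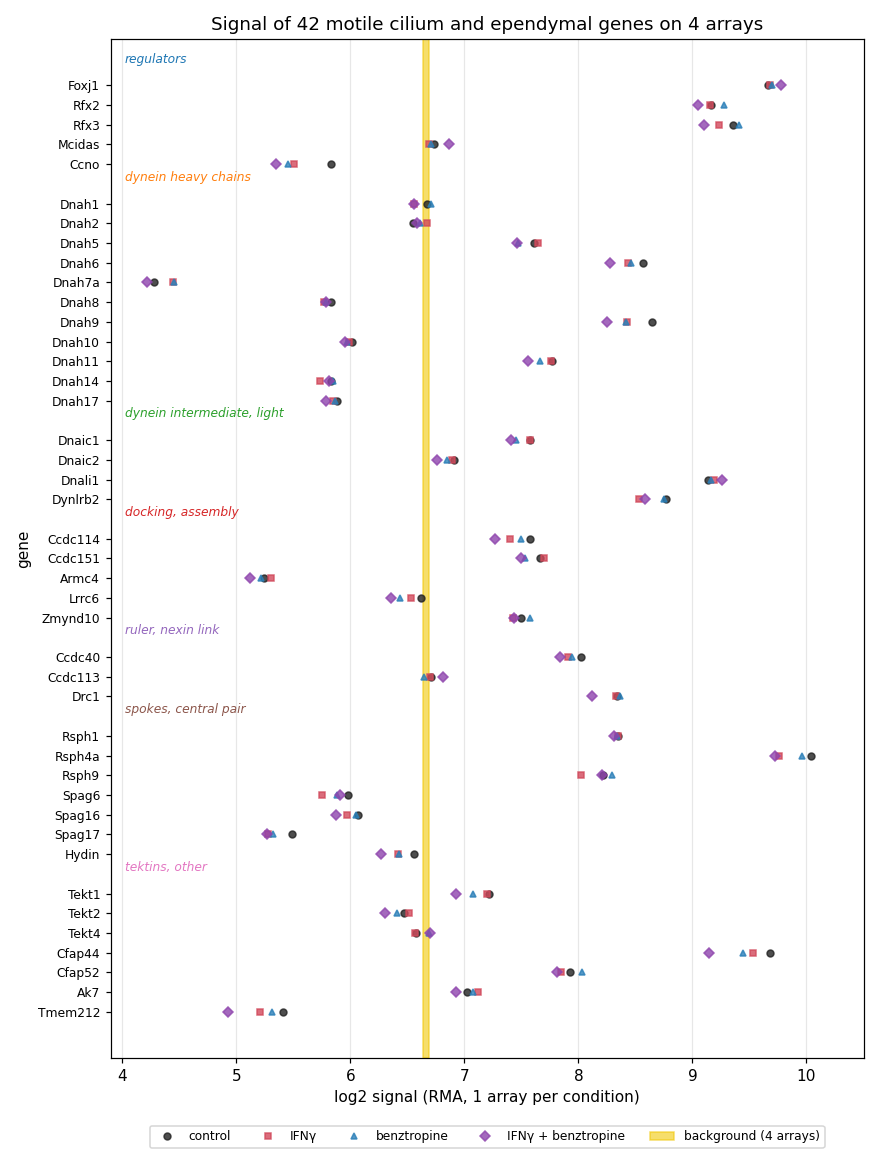
Log2 signal (horizontal axis) of 42 motile cilium and ependymal genes (vertical axis, grouped by role), with 1 point per array: control, IFNγ, benztropine and both agents. The yellow band is the background of the 4 arrays, 6.64 to 6.69, and the points of a gene lie close together compared with the distance between genes.

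Detection was also counted for markers of cell types, beside the 58.0% of all genes. Which cells gave the ciliary signals was not tested. Of 15 ependymal genes outside the axoneme, 13 were above background in control, although 4 of the 15 are also astrocyte markers and 1 is *Foxj1* itself. The ciliated choroid plexus was less represented, with 6 of 14 markers. Its leading product *Ttr*, the thyroxine carrier, had 6.76 in control and *Aqp1* had 6.73, both next to background. The other detected markers were higher, with *Folr1* at 7.98, *Otx2* at 7.70, *Cldn1* at 7.42 and *Cldn3* at 7.15. Of 14 spermatid genes, which mark another site of these axonemal proteins, 1 (*Odf1*) was above background. Astrocyte markers, the labelled cell type, were detected for 13 of 14, and those of microglia and macrophages for 17 of 17.

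IFNγ lowered none of the 42 genes past 1.5-fold (0.58 on the log2 scale), the size of change the study used, in either background. The count was 0 against control, where 0.289% of all genes were lower by that much, and 0 with both agents against benztropine, where 0.347% were. Of these, 17 were not above background in control and could hardly show such a fall. Among the 25 with a mean above background the count was likewise 0 in each pair. Counted in either direction it was also 0 in both pairs, against 1.68% and 1.6% of all genes. At a lower threshold of 0.32 on the log2 scale, 1 of the 42 was lower in each pair, *Ccno* against control (3.15% of all genes) and *Tmem212* with both agents against benztropine (4.07%), both from signals below background. The differences ran from −0.32 to 0.17 in the first pair and from −0.38 to 0.17 in the second. The same arrays carried the response to the cytokine, since all 13 interferon-inducible genes examined were called higher by limma, with a median difference of 2.18 against control and 2.17 with both agents against benztropine.

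Small differences leaned downward. With IFNγ against control 31 of the 42 genes had a difference below 0, where 50.3% of all genes did, and with both agents against benztropine 36 had, where 59.6% did. Of the 42 genes, 27 (64.3%) were lower in both IFNγ pairs, 2 higher in both and 13 split, whereas 34.4% of all genes were lower in both and 24.3% higher in both. Among genes whose mean over the 4 arrays was above background, 16 of 25 members were lower in both, against 37.5% of 13001 genes, and 2 higher in both, against 25.6%. The median difference of the 42 genes was −0.05 against control and −0.10 with both agents against benztropine, beside −0.00 and −0.04 over all genes. For the 25 with a mean above background it was −0.02 and −0.14. These genes were measured on the same arrays, so they are not independent of each other and the counts carry no test.

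**Figure D2:**
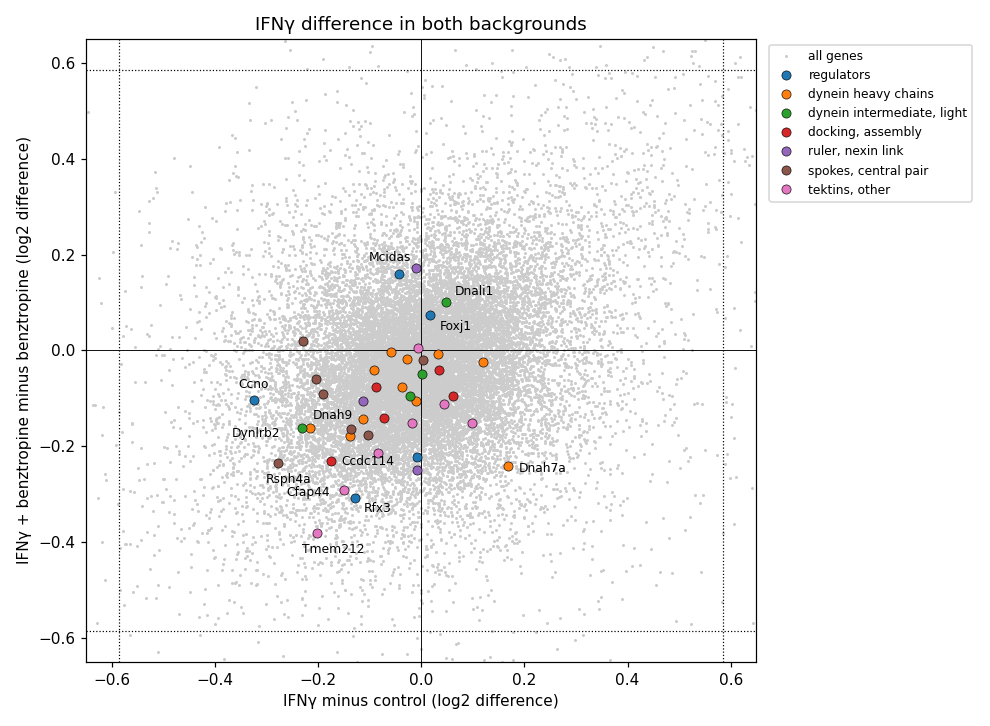
Log2 difference with IFNγ in the absence (horizontal axis) and in the presence (vertical axis) of benztropine, for all genes (grey) and for the 42 motile cilium and ependymal genes (coloured by role). Dotted lines mark 1.5-fold, and 395 genes outside the axes are not drawn. Of the 42 points, 27 lie in the lower left corner and none passes a dotted line.

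The regulators differed in direction among themselves. *Foxj1*, the forkhead factor at the head of the motile cilium programme, had log2 signals of 9.66 in control, 9.68 under IFNγ, 9.70 under benztropine and 9.77 under both. *Rfx3* had 9.36, 9.23, 9.41 and 9.10 in the same order, so that both IFNγ arrays lay below both arrays without it. *Foxj1* was instead higher by 0.02 with IFNγ against control and by 0.07 with both agents against benztropine. *Rfx2*, whose product acts with Rfx3 on ciliary genes, had 9.17, 9.16, 9.28 and 9.05, a difference of −0.01 without benztropine and of −0.22 with it. *Mcidas*, the coactivator that commits a cell to many cilia, had 6.74, 6.69, 6.71 and 6.87, just above background on every array. *Ccno*, the cyclin-related gene of basal body amplification, had 5.83, 5.51, 5.45 and 5.35 and was below background throughout, so that its differences of −0.32 and −0.10 do not measure a fold.

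Among the heavy chains, which form the motor of the dynein arms, *Dnah9* and *Dnah6* had the lowest mean of both IFNγ differences among those detected. *Dnah9*, an outer arm chain, had log2 signals of 8.64 in control, 8.43 under IFNγ, 8.42 under benztropine and 8.25 under both. *Dnah6*, an inner arm chain, had 8.57, 8.43, 8.46 and 8.28. In both genes control was the highest array and the array with both agents the lowest. *Dnah5* and *Dnah11*, the other detected outer arm chains, differed by 0.03 and −0.01 without benztropine and by −0.01 and −0.11 with it. The remaining 7 heavy chains (*Dnah1*, *Dnah2*, *Dnah7a*, *Dnah8*, *Dnah10*, *Dnah14* and *Dnah17*) were not above background in control by the mean of their probe sets. Of all 11, 8 were lower in both pairs (72.7%, beside 34.4% of all genes). Among the detected chains these were *Dnah6*, *Dnah9* and *Dnah11*, and not *Dnah5*. The rest of the 8 were not above background in control, such as *Dnah8* at −0.058 and −0.003, and do not measure a fold. The 2 probe sets of *Dnah2* differed by 0.30 and −0.06 with IFNγ against control, the second of them being above background on all arrays.

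The intermediate and light chains included both directions. *Dynlrb2*, a roadblock-type light chain, had 8.76 in control, 8.53 under IFNγ, 8.75 under benztropine and 8.58 under both, so that both IFNγ arrays lay below both others. *Dnali1*, a light chain of the inner arm, was higher in both pairs, by 0.05 and 0.10. *Dnaic1* and *Dnaic2*, the intermediate chains of the outer arm, differed by 0.00 and −0.02 without benztropine and by −0.05 and −0.09 with it.

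Docking and assembly of the arms followed a like range. *Ccdc114*, a subunit of the outer arm docking complex, had 7.57 in control, 7.40 under IFNγ, 7.50 under benztropine and 7.27 under both, again with both IFNγ arrays below both others. The docking genes *Ccdc151* and *Armc4* differed by 0.03 and 0.06 without benztropine and by −0.04 and −0.09 with it. *Zmynd10*, which helps to fold and assemble the arms in the cytoplasm, had 7.50, 7.43, 7.57 and 7.43. Its partner *Lrrc6* was below background on all arrays, with differences of −0.09 and −0.08.

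*Ccdc40*, a component of the molecular ruler that spaces the axonemal repeat, had 8.02 in control, 7.91 under IFNγ, 7.94 under benztropine and 7.84 under both. *Drc1*, a core subunit of the nexin-dynein regulatory complex, had 8.34, 8.33, 8.37 and 8.12. Only the array with both agents stood apart for *Drc1*, which differed by −0.01 without benztropine and by −0.25 with it. The coiled-coil gene *Ccdc113* lay near background and differed by −0.01 and 0.17.

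*Rsph4a*, which encodes a protein of the radial spoke head, had log2 signals of 10.04 in control, 9.76 under IFNγ, 9.96 under benztropine and 9.72 under both. Both IFNγ arrays lay below both others, by 0.28 without benztropine and by 0.24 with it. *Rsph9*, another spoke head gene, had 8.21, 8.02, 8.30 and 8.21, and here control and the array with both agents had the same value to 2 decimals. *Rsph1* stayed between 8.31 and 8.35 on all arrays. Of the central pair genes, *Hydin*, *Spag16* and *Spag17* were lower in both pairs and *Spag6* in 1, and the mean of each gene's probe sets was below background. The 2 probe sets of *Spag17* disagreed with IFNγ against control, at 0.06 and −0.47, as did those of *Spag6*, at −0.45 and −0.01. Those of *Hydin*, a central pair protein whose loss causes hydrocephalus in mice, had −0.09 and −0.19, the first of them from signals above background on all arrays.

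*Cfap44*, which encodes an axonemal protein tied to the inner arms, had log2 signals of 9.68 in control, 9.53 under IFNγ, 9.44 under benztropine and 9.15 under both. Each agent was accompanied by a lower value whether or not the other was present. *Cfap52*, an inner protein of the doublet microtubule, had 7.93, 7.84, 8.03 and 7.81. *Ak7*, an adenylate kinase of the axoneme, had 7.02, 7.12, 7.08 and 6.93, higher by 0.10 with IFNγ alone and lower by 0.15 in the presence of benztropine. *Tekt1*, a filament protein inside the doublet, differed by −0.02 and −0.15. The other tektin genes *Tekt2* and *Tekt4*, not above background in control, had 0.04 and −0.01 in the first pair and −0.11 and 0.01 in the second, and the 2 probe sets of *Tekt2* had −0.04 and 0.13 with IFNγ against control. *Tmem212*, a marker of ependymal cells, had 5.41, 5.21, 5.31 and 4.93, all below background.

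A limma fit over the 4 arrays, with additive terms for IFNγ and benztropine and 1 residual degree of freedom, gave each gene an estimate over both backgrounds with an error. With Benjamini-Hochberg adjustment over 22180 genes, limma called 0 of the 42 genes lower and 0 higher with IFNγ, against 0.0271% and 0.726% of all genes. At an unadjusted p under 0.05, limma had 7 of the 42 lower (16.7%, beside 6.53% of all genes) and 0 higher (beside 5.87%). The lowest adjusted p of limma, 0.293, was that of *Rsph4a*, whose estimate was −0.26 (SE 0.069). The estimate was −0.22 (SE 0.076) for *Cfap44*, −0.22 (SE 0.080) for *Rfx3*, −0.20 (SE 0.069) for *Ccdc114*, −0.20 (SE 0.070) for *Dynlrb2*, −0.19 (SE 0.069) for *Dnah9* and 0.05 (SE 0.070) for *Foxj1*. *Tmem212*, at −0.29 (SE 0.080), completes the 7 with an unadjusted p under 0.05, from a signal below background.

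The 95% intervals of these estimates describe these arrays. Their variance comes from departures from additive effects, so they hold no variation between cultures and set no limit for other cultures. For all 42 genes the interval lay above a fall of 1.5-fold, the lowest bound being −0.50, and the highest upper bound was 0.29. Only 25 of the 42 were above background in control, and the others could hardly show such a fall. The interval of *Rsph4a* ran from −0.44 to −0.07 and that of *Foxj1* from −0.14 to 0.23. Across all genes, the 6 that limma called lower had estimates of −0.67 or below, larger than any difference among the 42. The intervals assume that the effects of the agents add, borrow their variance from all genes and hold for signals, which change less than the transcript does near background.

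**Figure D3:**
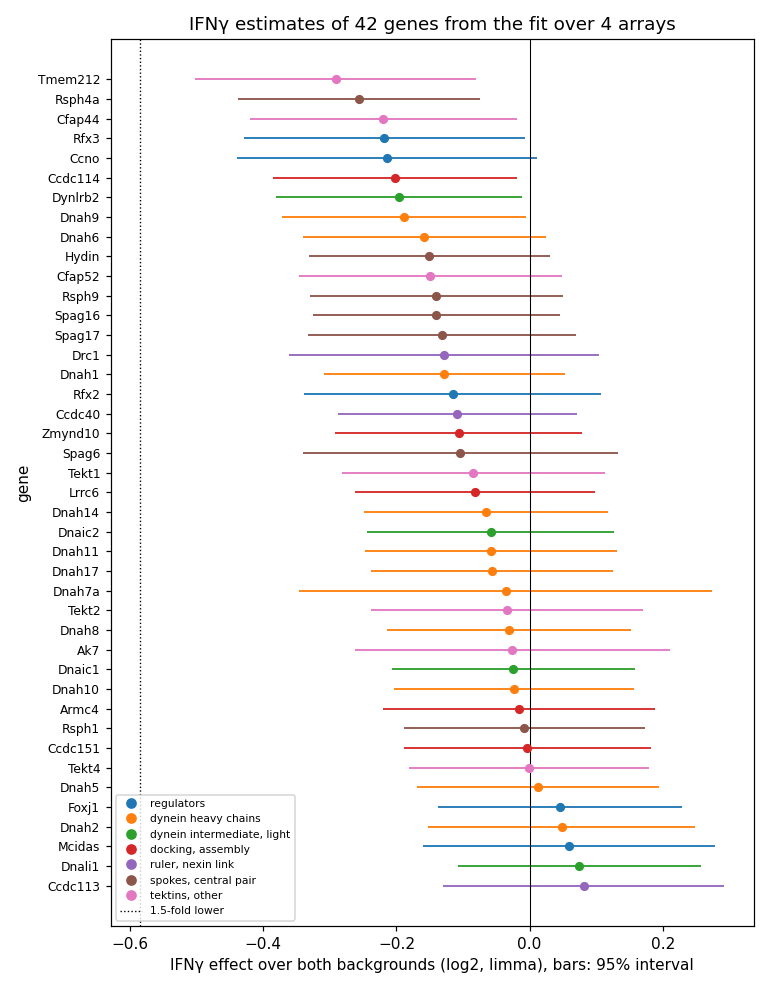
Effect of IFNγ over both backgrounds (horizontal axis, log2, from the limma fit over 4 arrays) for each of 42 genes (vertical axis, coloured by role), with 95% intervals as bars. The dotted line marks a fall of 1.5-fold, and every interval lies to the right of it, the lowest bound being −0.50.

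Benztropine was likewise followed by no change of 1.5-fold. Against control 0 of the 42 genes were lower by that much (0.194% of all genes) and 0 past it in either direction (0.464%). With both agents against IFNγ 0 were lower (0.275%) and 0 past it in either direction (0.514%). At the lower threshold 1 was lower in each pair, *Ccno* against control (2.2% of all genes) and *Cfap44* with both agents against IFNγ (2.92%). Differences below 0 numbered 28 against control, where 46.2% of all genes had one, and 31 with both agents against IFNγ, where 56.8% had. Limma called 0 of the 42, as it did among all genes for this agent, and at an unadjusted p under 0.05 had 5 lower (*Cfap44*, *Ccno*, *Dnah9*, *Lrrc6* and *Tekt1*; 3.61% of all genes were lower) and 0 higher (3.53% of all genes). In both benztropine pairs 23 of the 42 were lower, against 28.4% of all genes, and 6 higher, against 25.2%. Among those with a mean above background 13 of 25 were lower in both, against 28.1%. *Cfap44* had the lowest benztropine estimate, −0.31 (SE 0.076). The benztropine pairs use the same 4 arrays as the IFNγ pairs and are no independent evidence.

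The array with both agents was the lowest of the 4 for 30 of the 42 genes (71.4%), against 34.8% of all genes, and for 18 of the 25 with a mean above background, against 36.7%. Control was at the same time the highest for 17 (40.5%), against 14.1% of all genes, and for 9 of those 25, against 15.5%. These 17 were *Ccno*, *Dnah6*, *Dnah9*, *Dnah10*, *Dnah11*, *Dnah17*, *Dnaic2*, *Ccdc114*, *Lrrc6*, *Ccdc40*, *Rsph4a*, *Spag16*, *Spag17*, *Hydin*, *Tekt1*, *Cfap44* and *Tmem212*. The median signal over all probe sets was 6.65 on the array with both agents and 6.66 in control. The array with both agents was also the lowest for 11 of 14 astrocyte markers.

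Further genes of motile cilia, not among the 42, leaned the same way. Of 64 measured, 51 were above background in control (79.7%, beside 58.0% of all genes). In both IFNγ pairs 33 were lower (51.6%, beside 34.4%) and 9 higher (14.1%, beside 24.3%), with medians of −0.05 and −0.09. Limma called 0 of them, with 8 lower (12.5%, beside 6.53% of all genes) and 0 higher (beside 5.87%) at an unadjusted p under 0.05. *Cfap70*, a protein of the outer arm base, had 7.42 in control, 7.12 under IFNγ, 7.25 under benztropine and 6.95 under both. *Wdr66* had 7.72, 7.45, 7.79 and 7.52, with both IFNγ arrays below both others.

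Markers of whole cell types differed on the same arrays. Of 14 astrocyte markers, 12 were lower in both IFNγ pairs and 0 higher in both, with medians of −0.14 and −0.17, and *Ntsr2*, the largest by the mean of both pairs, differed by −0.63 and −0.57. *S100b*, which is also on the ependymal list, differed by −0.44 and −0.67. Of the 15 ependymal genes outside the axoneme 11 were lower in both, with medians of −0.12 and −0.09, and of 12 fibroblast and leptomeningeal genes 9. *Dcn*, which encodes the fibroblast proteoglycan decorin, differed by −0.90 and −1.41. The median signal of the astrocyte markers was 9.77 in control, 9.72 under IFNγ, 9.76 under benztropine and 9.60 under both. By this median both IFNγ arrays were the lower ones for astrocyte markers, and *Gfap*, the astrocyte filament protein, differed by −0.16 and −0.27. The median signal of all 42 genes, many of them below background, did not share this order. It was 7.12 in control, 7.16 under IFNγ, 7.08 under benztropine and 6.93 under both. For the 25 with a mean above background the median was 8.02, 7.91, 8.03 and 7.84 in the same order. Both IFNγ arrays were the lower ones there, as for the astrocyte markers. Of 17 microglia and macrophage markers, 10 were higher in both and 3 lower, with medians of 0.22 and 0.10, *Aif1* at 0.56 and 0.57. *Mrc1*, a marker of perivascular macrophages, had −0.04 and −0.68. Their median signal was 10.40, 10.55, 10.58 and 10.46 in the same order. Choroid plexus markers were lower in both for 3 of 14 and higher for 2, and spermatid genes for 5 and 4 of 14. Beside these counts, 34.4% of all genes were lower in both and 24.3% higher in both. The spermatid genes, at 35.7% and 28.6%, lay close to these shares. None of these marker lists had a gene called by limma. In a mixed culture, fewer cells of a type and less RNA per cell cannot be told apart, and the part of cell composition in the small differences of the 42 genes was not tested.

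**Figure D4:**
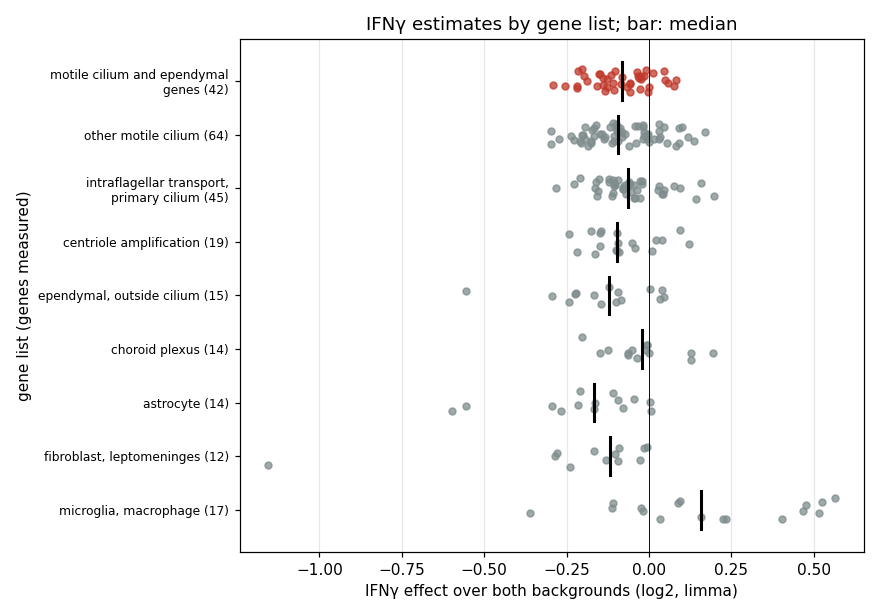
Effect of IFNγ over both backgrounds (horizontal axis, log2, limma) for the genes of 9 lists (vertical axis, number of genes measured in brackets), with 1 point per gene and a black bar at the median. The 42 motile cilium and ependymal genes (red) lie between −0.29 and 0.08, on the same side of 0 in the median as astrocyte, fibroblast and other ciliary genes and opposite to microglia and macrophage genes.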

How the data were processed

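The authors processed the scans with the RMA method in Affymetrix Expression Console and deposited log2 signals, background-corrected, quantile-normalized over the arrays and summarized per probe set, which were used as they stand. Which genome build the probe sets were mapped to is not given in the sources used here. Of 41345 probe sets, 23521 had 1 gene symbol in the platform annotation, 1820 several and 16004 none, and the first were averaged into 22180 genes. The number of arrays limits the precision.

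Differences between pairs of arrays were read at 1.5-fold, and limma was fitted to all 22180 genes (additive terms, prior degrees of freedom 3.61, Benjamini-Hochberg at 0.05). The members, the gene lists and the motifs were chosen with earlier results of these data known. Values on all 4 arrays are given for the regulators, for any member past 1.5-fold or called (there were 0), and for the 15 largest by mean size of the IFNγ differences among members with mean signal above background. Values of other genes, such as *Tmem212*, *Rsph1* and *Mrc1*, were added after they were seen. Of other lists, some of the genes with the largest mean IFNγ difference are named. Others, such as *Gfap* and the detected choroid plexus markers, are named outside that rule.

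Alternatives were thresholds of 2-fold and of 0.32 on the log2 scale, the highest probe set per gene, quantile normalization, a loess trend removed (span 0.3), genes with mean signal above background only, probe sets with several symbols added, and, in the limma fit, variances allowed to follow the mean signal or estimated robustly, a cutoff of 0.10 for the adjusted p, and a fit on single probe sets. The steps were tested on simulated data. R 4.3.3, limma 3.58.1, Python 3.11.15, pandas 2.3.3 and statsmodels 0.14.6 were used.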

Additional observations from a re-analysis of the deposited data

Results flagged for a closer look

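*Dnah7a*, an inner arm heavy chain, differed in opposite directions with IFNγ, by 0.17 without benztropine and by −0.24 with it, a gap of −0.41. By construction the gap is the same for benztropine, at 0.18 without IFNγ and −0.23 with it. *Rfx2* differed by 0.11 with benztropine against control and by −0.105 in the presence of IFNγ, a gap of −0.21. These are the members whose differences were opposite and at least 0.1 in size both times. With 1 array per condition the gaps were not tested, and *Dnah7a* was below background on all arrays.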

How the results depend on the processing

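Of 60 alternative values, 7 moved, all given here, and none reversed. The median difference of the members ranged from −0.07 to −0.02 with IFNγ against control and from −0.14 to −0.07 with both agents against benztropine. At a threshold of 0.32 on the log2 scale, 1 member was past it in each of the 4 pairs, in place of 0, namely *Ccno* with IFNγ and with benztropine against control, *Tmem212* with both agents against benztropine and *Cfap44* with both agents against IFNγ. Among genes with mean signal above background, 16 of 25 members (64.0%) were lower in both IFNγ pairs, in place of 27 of 42 (64.3%). The matching shares of all genes were 37.5% and 34.4%. Here the count moved because fewer members were counted, while the share of members stayed nearly the same. With a loess trend removed, 6 members were higher in both, in place of 2, while the share of all genes became 30.2%, in place of 24.3%. Under the same setting 25 members were lower in both, against 28.8% of all genes. At the 99th percentile, 16 members were above background, in place of 25. Limma called 0 members under each of its alternatives. Its calls with IFNγ over all genes were 6 lower and 161 higher, and became 133 and 419 with a variance trend, 131 and 380 among genes with mean signal above background, 24 and 229 at an adjusted p under 0.10 and 11 and 249 on probe sets. The lowest adjusted p of a member was 0.057 with the trend and 0.0916 with the filter, both for *Rsph4a*, where limma had 0.293 at first. No array can be left out of the fit, which would then have no residual degree of freedom. No paired analysis was possible because the labels give 1 sample per condition.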

Other observations

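Genes of the primary cilium and of intraflagellar transport, which serve nearly all cell types, were detected for 44 of 45 in control. With IFNγ 29 were lower in both pairs (64.4%) and 8 higher in both (17.8%), beside 34.4% and 24.3% of all genes. The medians were −0.06 and −0.07. Limma called 0, with 3 lower (6.67%, beside 6.53% of all genes) and 0 higher (beside 5.87%) at an unadjusted p under 0.05. *Kif17*, a kinesin of ciliary transport, had 7.20 in control, 6.89 under IFNγ, 7.01 under benztropine and 6.76 under both. Of 9 subunits of cytoplasmic dynein, the motor of transport inside the cell, 5 were lower in both and 0 higher.

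Of 19 genes of centriole amplification and its regulators, 15 were detected. In both IFNγ pairs 12 were lower (63.2%, beside 34.4% of all genes) and 4 higher (21.1%, beside 24.3%). *Cdc20b* is the protein-coding neighbour of *Mcidas* on chromosome 13, and *Ccno* lies on the other side of *Mcidas*. *Cdc20b* and *Ccno* were below background on all arrays, so their differences cannot be compared, and *Mcidas* was just above it. Of 10 neural progenitor genes, 4 were lower in both pairs and 5 higher, with *Nes* at −0.35 and −0.42 and *Prom1*, which encodes a membrane protein also found on ependyma, at −0.33 and −0.42. *Tubb3*, a tubulin of neurons, was higher in both, at 0.26 and 0.42.

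Probe sets annotated to several genes held the members without a value of their own. The one shared by *Ttc14* and *Ccdc39* was above background on all arrays and differed by −0.27 with IFNγ against control and by −0.16 with both agents against benztropine. That of *Ccdc103* and *Fam187a* had log2 signals of 6.81 in control, 6.77 under IFNγ, 6.87 under benztropine and 6.85 under both. That shared by *Dnah7a*, *Dnah7b* and *Dnah7c* had 7.99, 7.73, 7.85 and 7.90, above background on all arrays, unlike the probe set of *Dnah7a* alone. Which of the genes gave these signals was not tested.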
